A study of Mus musculus with 4 samples.

Results

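Mouse bone marrow was examined at the stretches of chromatin where binding of Ldb1 and of Tal1 was called and binding of Gata1 was not. The sites listed for Ldb1, Tal1 and Gata1 on chromosomes 1 to 19 were pooled, and neighbouring site centres at most 200 bp apart were chained into places. Of 9522 places, 833 (8.75%) held at least 1 Ldb1 site and at least 1 Tal1 site and no Gata1 site, and are called Ldb1-Tal1 places below. Among the 3082 places with sites of both Ldb1 and Tal1 they made up 27.0%, and the other 2249 were called for all 3 antibodies. A Gata1 site lay within 1000 bp of the midpoint of 83 of the 833 places (9.96%, 95% interval 8.01 to 12.2), and none lay that close to the other 750.

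Ldb1 is an adaptor protein that does not bind DNA by itself. It self-associates and, through LIM-only proteins such as Lmo2, is joined to the basic helix-loop-helix factor Tal1 (also called Scl), which binds E-boxes with an E-protein partner, and to the zinc finger factor Gata1, which binds GATA motifs. Such multiprotein complexes are best known from the enhancers of red cell genes, including those of the globin loci. Gata1 is made by erythroid, megakaryocytic, mast cell and eosinophil lineages, whereas Ldb1 and Tal1 are also made by haematopoietic stem and progenitor cells that rely on the related factor Gata2.

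Chromatin immunoprecipitation and sequencing (ChIP-seq) was done on total bone marrow, with 1 library each for antibodies against Ldb1 and Tal1 (both from Santa Cruz), Gata1 (Abcam) and control IgG. The cells were fixed with formaldehyde straight after isolation and their chromatin was broken by sonication. The sources used here do not state the strain, age, sex or genotype of the mice, or how many were pooled. Total marrow mixes many lineages, so tags of different antibodies at 1 place need not come from the same cells, and fewer cells with a bound protein cannot be told apart from weaker binding in each cell. The Ldb1 library held 6368803 tags, that of Tal1 5767555, that of Gata1 7873298 and that of IgG 7437674. Tags were 25 bases long for the 3 antibodies and 36 bases for IgG, and the part of this difference in the folds over IgG was not tested. Levels are tags with their centre within 250 bp of the midpoint of a place, per 1000000 tags of the library (RPM).

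There was 1 library per antibody, so no difference between antibodies has a replicate check. All 4 libraries entered the site lists that chose the places: Ldb1 and Tal1 levels were bound to be high and Gata1 levels bound to be lower than at called Gata1 sites. The values below describe the places and do not test them. Intervals are exact 95% intervals that cover counting error only, and amplified tags are not independent molecules.

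The Ldb1 and Tal1 sites of these places were close to the middle of their lists in strength and rarely at the top. They held 833 of the 5081 Ldb1 sites on these chromosomes (16.4%) and 840 of the 5315 Tal1 sites (15.8%). The authors' caller gave these Ldb1 sites a median of 14 tags (range 9 to 94), against 15 over the whole list. The Tal1 sites had a median of 12 (8 to 78), against 13. The strong end of each list was nearly absent. Of the Ldb1 sites, 9 (1.08%) had the 48 or more tags that mark the upper 10% of the Ldb1 list, and 12 of the Tal1 sites (1.43%) reached the same number in theirs. At the caller's minimum, which was 9 tags for Ldb1 and 8 for Tal1, stood 11.5% and 13.6% of these sites, against 13.7% and 17.0% of the lists.

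The places were compact, as the chaining of centres at most 200 bp apart requires. In 826 of the 833 there was 1 Ldb1 and 1 Tal1 site, and the other 7 held 3 sites. In these 826 places the Ldb1 and Tal1 centres could not lie more than 200 bp apart. The median place was 100 bp wide (quartiles 80 to 160 bp). The nearest Ldb1 and Tal1 centres were separated by 30 bp in the median place, with quartiles of 10 and 60 bp, and 624 pairs (74.9%) lay within 50 bp. Under the limit set by chaining, 41 places (4.92%) had these centres over 100 bp apart. At the places of all 3 antibodies the median was also 30 bp (10 to 60 bp), with 74.0% within 50 bp. The spacing of Ldb1 and Tal1 calls had the same median and quartiles at places with and without a Gata1 call. The same chaining rule limited the spacing at both kinds of place, so this likeness is a description and not a test.

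Absence of a Gata1 call went with low levels of the other 2 proteins. The 3082 places with both Ldb1 and Tal1 sites were ranked by their summed Ldb1 and Tal1 RPM and cut into 5 equal parts. In the weakest part (3.46 to 8.56 RPM), 372 of 616 places (60.4%, 56.4 to 64.3) had no Gata1 site. The share was 39.4% in the next part, 21.1% in the third and 11.7% in the fourth. In the strongest part (30.8 to 282 RPM) it was 16 of 617 (2.59%, 1.49 to 4.18). Of those 16 places, 11 had a Gata1 site within 1000 bp, which leaves 5 strong places (0.810%) without a Gata1 site that near. The summed level counts tags within 250 bp, so close to a Gata1 site it can include tags of the neighbouring site. The highest of the 5, on chromosome 9 from 3002331 to 3002511, had only 36 distinct of 181 Ldb1 tags.

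The 750 places with no Gata1 site within 1000 bp had a median of 4.08 Ldb1 RPM (lowest 1.41, highest 28.4). Tal1 had a median of 4.51 RPM there (1.73 to 29.6), Gata1 1.65 RPM (0 to 15.7) and IgG 0.269 RPM (0 to 4.03). Gata1 thus stood between the called proteins and the background. The Gata1 level was above that of Ldb1 at 17 of the 750 places and above that of Tal1 at 11, and at 26 places (3.47%) it was at or under the IgG level. Only 1 place had no Gata1 tag at all, whereas 112 had no IgG tag.

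At the 83 places with a Gata1 site within 1000 bp every antibody had a higher median, and at the nearest of them the window reaches tags of the neighbouring site. Ldb1 had 5.02 RPM (1.88 to 30.5), Tal1 6.76 RPM (2.77 to 45.9), Gata1 2.67 RPM (0.381 to 15.7) and IgG 0.403 RPM (0 to 1.48). None of the 83 had Gata1 at or under IgG. The ranges of both groups of places overlapped for every library. The 2249 places of all 3 antibodies had medians of 8.32 Ldb1 RPM, 9.88 Tal1 RPM, 4.57 Gata1 RPM and 0.269 IgG RPM.

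**Figure D1:**
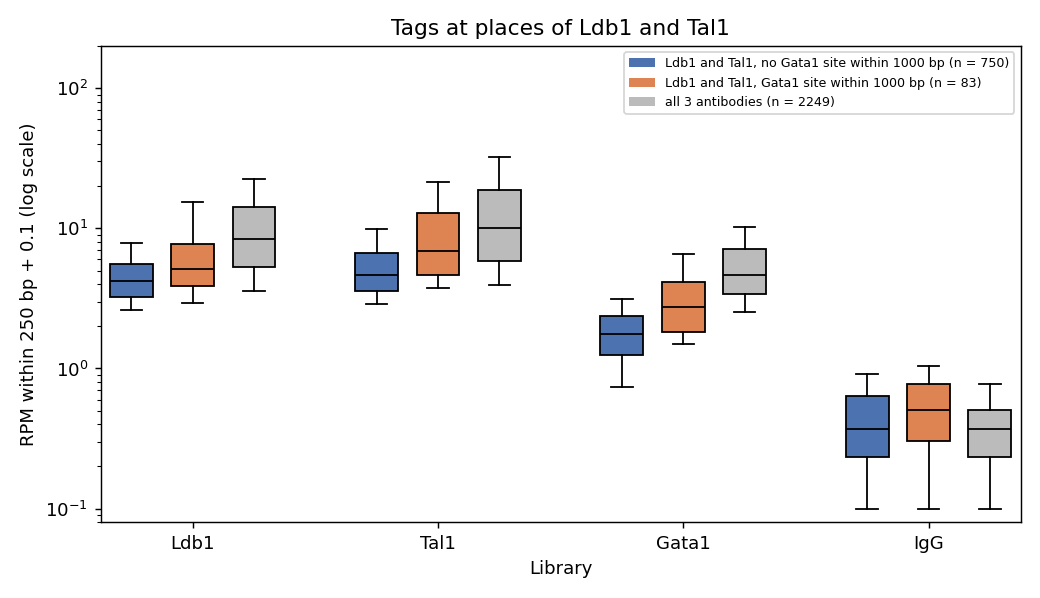
Tags within 250 bp of the midpoint, in RPM plus 0.1 on a log scale, for each library at Ldb1-Tal1 places with no Gata1 site within 1000 bp, at those with one, and at places of all 3 antibodies. Lines are medians, boxes quartiles and whiskers the 10th and 90th percentiles over places; Gata1 has a median of 1.65, 2.67 and 4.57 RPM in the 3 groups, while that of IgG is at most 0.403.

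Summed over the 750 places, the Gata1 library held 10773 tags against 2235 of IgG, a fold of 4.55 (4.35 to 4.77) once scaled to library size. The Ldb1 fold was 11.9 (11.4 to 12.4) and the Tal1 fold 14.0 (13.4 to 14.6). Against their own flanks, from 2 to 5 kb on either side, Gata1 tags were 4.92 times as dense (4.81 to 5.03), Ldb1 tags 10.7 times and Tal1 tags 13.2 times. IgG was itself 1.60 times as dense as in its flanks (1.53 to 1.67). Over the 652 places with at most 5 IgG tags, the IgG ratio was 1.22 (1.16 to 1.29) and the Gata1 fold over IgG 5.55 (5.25 to 5.87). Leaving out places with many IgG tags lowers the first and raises the second by construction.

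Gata1 tags were also set against IgG place by place. An exact binomial test (one-sided, Benjamini-Hochberg adjusted over all 9522 places, adjusted p at most 0.05) called Gata1 at 513 of the 750 places (68.4%, 64.9 to 71.7). Over all places 82.3% were called, and that share includes every place with a Gata1 site, so nothing is read from the difference. The test compares 2 libraries and not conditions. Its reach was short at this depth: a place without IgG tags needed at least 5 Gata1 tags to pass, and a place with 3 IgG tags at least 11. A place that did not pass is therefore not shown to lack Gata1. By the same test Ldb1 passed at 748 and Tal1 at 747 of the 750 places, against 74.5% and 78.5% of all places. The 750 places were chosen for called Ldb1 and Tal1 sites, so these counts were bound to be high and nothing is read from them.

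Many of the places carried about as many Gata1 tags as the caller asks for. The caller required 11 tags for a Gata1 site, counted with 1 tag per position. Within 250 bp, the 750 places had a median of 11 distinct Gata1 tags (quartiles 8 to 15), and 417 (55.6%, 52.0 to 59.2) had 11 or more. The 775 places whose Gata1 site had exactly 11 tags had a median of 15 distinct tags in the same window (quartiles 13 to 17). The window is wider than the stretch the caller counted, so these numbers are not the caller's own. Compared with the places of all 3 antibodies, 167 of the 750 (22.3%, 19.3 to 25.4) reached the 10th percentile of their Gata1 level (2.41 RPM). Only 21 (2.80%, 1.74 to 4.25) reached their median.

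The Gata1 tags lay where the Ldb1 and Tal1 tags lay. Averaged over the 750 places, tag density in all 3 antibody libraries was highest in the 50 bp bin just left of the midpoint. Gata1 reached 0.340 RPM per place there, Tal1 1.28 and Ldb1 0.981. In the central 200 bp the Gata1 density was 6.36 times that beyond 1000 bp, against 15.4 for Ldb1, 18.5 for Tal1 and 1.56 for IgG.

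**Figure D2:**
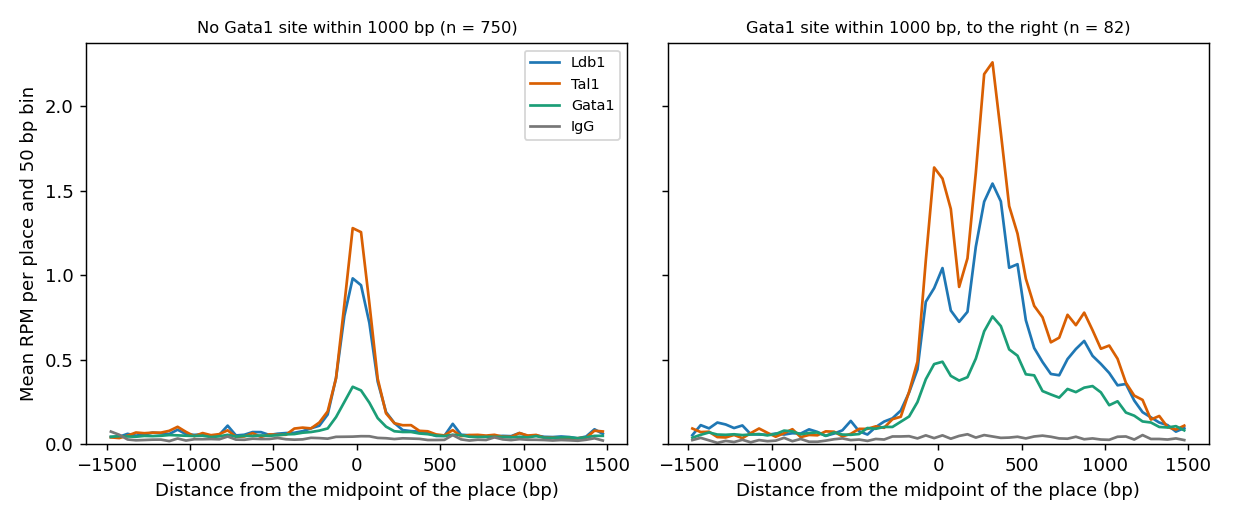
Mean tag density per place in bins of 50 bp, in RPM, against the distance from the midpoint, for 750 Ldb1-Tal1 places with no Gata1 site within 1000 bp (left) and for 82 places with one, turned so that this site lies to the right (right). On the left the 3 antibodies share 1 central peak, with Gata1 at 0.340 RPM. On the right a second and higher peak of all 3 stands 325 bp from the midpoint, on the side set by the turning towards a called site. IgG is low in both.

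The strands of the tags gave a second view. Around a point where a protein is fixed to DNA, sequenced fragment ends on the plus strand fall to its left and those on the minus strand to its right. A share of 50% on these sides marks tags with no such order. At the 750 places, 66.7% of Gata1 tags (65.8 to 67.6) lay on the side of their strand, against 76.3% for Ldb1, 74.4% for Tal1 and 57.5% (55.5 to 59.6) for IgG. The IgG share was itself above 50%, so the Gata1 share is to be read against it. The median plus-strand Gata1 tag lay 42 bp left and the median minus-strand tag 37 bp right of the midpoint, 79 bp apart. The separation was 79 bp for Tal1, 96 bp for Ldb1 and 59.5 bp for IgG. Positions are tag centres, which lie right of the fragment end on the plus strand and left of it on the minus strand. This draws the strands together, and more so for the 36-base IgG tags than for the 25-base antibody tags. The part of tag length in these separations and shares was not tested. With 1 tag per position and strand the Gata1 share was 67.0% and that of IgG 56.5%. The midpoints were set by Ldb1 and Tal1 sites, whose calls require this order in their own libraries but not in that of Gata1.

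**Figure D3:**
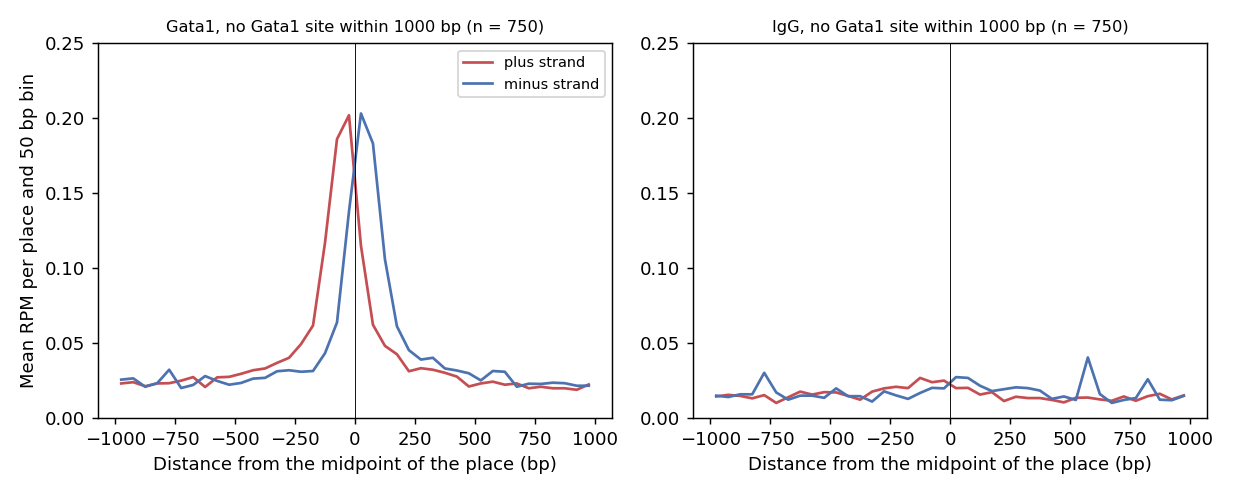
Density of plus-strand and minus-strand tags in RPM per place and 50 bp bin for Gata1 (left) and IgG (right) at the 750 Ldb1-Tal1 places with no Gata1 site within 1000 bp. Plus-strand Gata1 tags peak to the left of the midpoint and minus-strand tags to the right, with a share of 66.7% on the side of their strand; the IgG strands are low throughout, at 57.5%.

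The level of Gata1 went with that of Ldb1 and Tal1, and so did that of IgG. The 750 places were cut into 4 equal parts by summed Ldb1 and Tal1 RPM. The median Gata1 level was 1.27 RPM in the weakest part, then 1.52, 1.78 and, in the strongest part, 2.22. Mean IgG levels were 0.327, 0.338, 0.393 and 0.544 RPM. The Gata1 fold over IgG was 4.13 (3.73 to 4.58) in the weakest part and 4.59 (4.25 to 4.97) in the strongest, and these intervals overlap. Places of all 3 antibodies within the same ranges of summed level had Gata1 medians of 2.79, 2.92, 3.30 and 5.21 RPM, higher in each range by the choice of places. Across the 750 places, log2 RPM (pseudocount 0.1) of Gata1 had a Pearson r of 0.407 with Tal1, 0.332 with Ldb1 and 0.365 with IgG (Spearman rho 0.371, 0.317 and 0.372). The coefficient of Ldb1 with Tal1 was 0.466 (rho 0.385). Places share the same libraries and were chosen by calls from them, and the part of depth and of mappability in these coefficients was not tested.

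**Figure D4:**
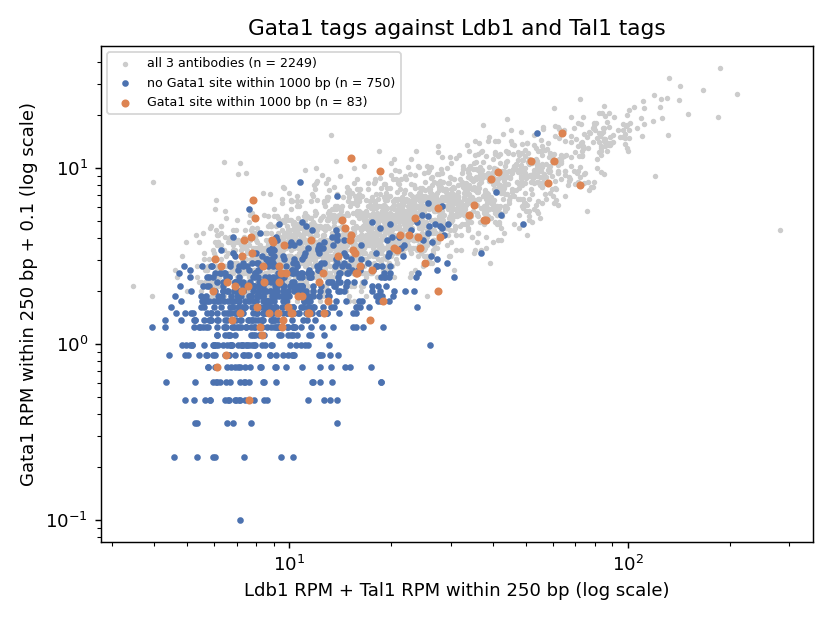
Gata1 RPM plus 0.1 against summed Ldb1 and Tal1 RPM, both within 250 bp and on log scales, with 1 point per place (grey: all 3 antibodies; blue and orange: Ldb1-Tal1 places without and with a Gata1 site within 1000 bp). The 750 places with no Gata1 site within 1000 bp lie to the lower left of most places of all 3 antibodies, and 5 of them are in the strongest part of the summed level (from 30.8 RPM).

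Places called for only 1 protein were held to the same condition on Gata1, and so give a comparison that the absence of a Gata1 call does not decide. With no Gata1 site within 1000 bp, the Gata1 fold over IgG was 2.80 (2.70 to 2.89) at 1352 places of Ldb1 alone and 3.04 (2.94 to 3.13) at 1256 places of Tal1 alone, against 4.55 at the Ldb1-Tal1 places. Single places of high IgG weigh on these sums. The highest IgG level was 106.6 RPM at Ldb1 alone, 12.5 RPM at Tal1 alone and 4.03 RPM at the Ldb1-Tal1 places. Over the places with at most 5 IgG tags (1218, 949 and 652 places), the folds were 4.23 (4.05 to 4.42), 4.47 (4.27 to 4.69) and 5.55 (5.25 to 5.87), in the same order and closer together. Against own flanks Gata1 was 3.66 times as dense at Ldb1 alone, 4.13 times at Tal1 alone and 4.92 times at the Ldb1-Tal1 places. Gata1 passed the binomial test at 643 of the 1352 places of Ldb1 alone and at 666 of the 1256 places of Tal1 alone, against 513 of the 750 Ldb1-Tal1 places; all 3 shares lie under the 82.3% of all places, which include those with a Gata1 site. The share of Gata1 tags on the side of their strand was 61.3% (60.5 to 62.2) at Ldb1 alone and 59.8% (59.0 to 60.5) at Tal1 alone, against 66.7%. The IgG share moved as well, at 44.3%, 51.4% and 57.5% in the same order, so the Gata1 share exceeded that of IgG by less at the Ldb1-Tal1 places than at Ldb1 alone. With at most 5 IgG tags per place the IgG shares were 48.8%, 51.9% and 57.4%. Levels of Ldb1 and Tal1 differed between these kinds of place. In the weakest range of summed level (3.95 to 7.03 RPM), which holds most places of 1 protein alone, the Gata1 folds were 4.13 (3.73 to 4.58) at Ldb1-Tal1 places, 3.84 (3.65 to 4.05) at Ldb1 alone and 3.36 (3.22 to 3.51) at Tal1 alone. There the interval of the Ldb1-Tal1 places overlapped that of Ldb1 alone and not that of Tal1 alone. In the 3 higher ranges the fold at Ldb1-Tal1 places was 4.68 (4.23 to 5.17), 4.75 (4.33 to 5.21) and 4.59 (4.25 to 4.97). At Ldb1 alone it was 2.74 (2.41 to 3.13; 91 places), 3.19 (2.44 to 4.22; 24 places) and 1.67 (1.41 to 1.99; 18 places). At Tal1 alone it was 3.10 (2.78 to 3.46; 94 places), 3.89 (3.39 to 4.49; 54 places) and 1.25 (34 places). The intervals of the Ldb1-Tal1 places lay above those of Ldb1 alone in these 3 ranges and overlapped that of Tal1 alone in the middle one. The order of the folds was not that of the Gata1 levels. From the weakest range to the strongest, median Gata1 was 1.27, 1.52, 1.78 and 2.22 RPM at Ldb1-Tal1 places. At Tal1 alone it was higher in each range, at 1.52, 1.65, 1.91 and 2.41 RPM. At Ldb1 alone it was 1.14, 1.27, 1.14 and 3.05 RPM. Mean IgG was 0.327, 0.338, 0.393 and 0.544 RPM at Ldb1-Tal1 places. It was 0.485, 0.615, 0.630 and 2.23 RPM at Tal1 alone and 0.336, 0.459, 0.398 and 1.59 RPM at Ldb1 alone. None of these intervals is a test between kinds of place.

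The other pairs of proteins without the third can be set beside these places. At 433 places of Ldb1 and Gata1 with no Tal1 site within 1000 bp, the fold of the uncalled Tal1 was 7.15 (6.66 to 7.69), with 64.8% of its tags on the side of their strand. At 418 places of Tal1 and Gata1 with no Ldb1 site that near, the fold of the uncalled Ldb1 was 3.99 (3.75 to 4.24), with 60.7%. Uncalled Gata1 at the Ldb1-Tal1 places stood at 4.55 and 66.7%. With at most 5 IgG tags per place, the folds were 8.22 (7.60 to 8.90) for Tal1, 5.55 (5.14 to 6.01) for Ldb1 and 5.55 (5.25 to 5.87) for Gata1. IgG had 41.4% and 39.9% of its tags on the side of their strand at the other pairs, against 57.5% at the Ldb1-Tal1 places, so the excess of the uncalled protein over IgG was smallest at the Ldb1-Tal1 places. Folds of different antibodies depend on how well each antibody works, so their order is a description only. They also depend on IgG. The median level of the uncalled protein was 1.91 RPM for Tal1, 1.73 RPM for Ldb1 and 1.65 RPM for Gata1. Mean IgG at these places was 0.278, 0.429 and 0.401 RPM in the same order. By the binomial test the uncalled protein passed at 78.3% of the places without Tal1, 60.8% of those without Ldb1 and 68.4% of those without Gata1. Over all places these antibodies passed at 78.5% (Tal1), 74.5% (Ldb1) and 82.3% (Gata1), so the 3 shares have different backgrounds and that of Tal1 is close to its own.

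Gata1 levels were highest at the places nearest to a Gata1 site. The median Ldb1-Tal1 place lay 26070 bp from a Gata1 site (quartiles 5720 to 90420 bp), and 197 (23.6%) lay over 100 kb away. The Gata1 fold over IgG was 12.4 (9.77 to 15.9) at the 18 places 200 to 300 bp from a Gata1 site, 7.32 (5.92 to 9.14) at the 31 places from 300 to 500 bp and 5.39 (4.38 to 6.69) at the 34 places from 500 to 1000 bp. It was 4.51 (3.74 to 5.48) at the 43 places from 1000 to 2000 bp, 5.35 (4.82 to 5.95) at the 152 places from 2000 to 10000 bp and 4.40 (4.12 to 4.71) at the 358 places from 10 to 100 kb. Beyond 100 kb it was 4.27 (3.91 to 4.67). From 500 bp on the fold thus showed no steady fall with distance. Ldb1 and Tal1 were also highest near a Gata1 site, with medians of 12.6 and 16.6 RPM in the nearest class and 3.77 and 4.16 RPM beyond 100 kb. Median IgG was 0.471 RPM in the nearest class and 0.269 RPM in the farthest. At the nearest distances the 250 bp window reaches the tags of the neighbouring site.

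**Figure D5:**
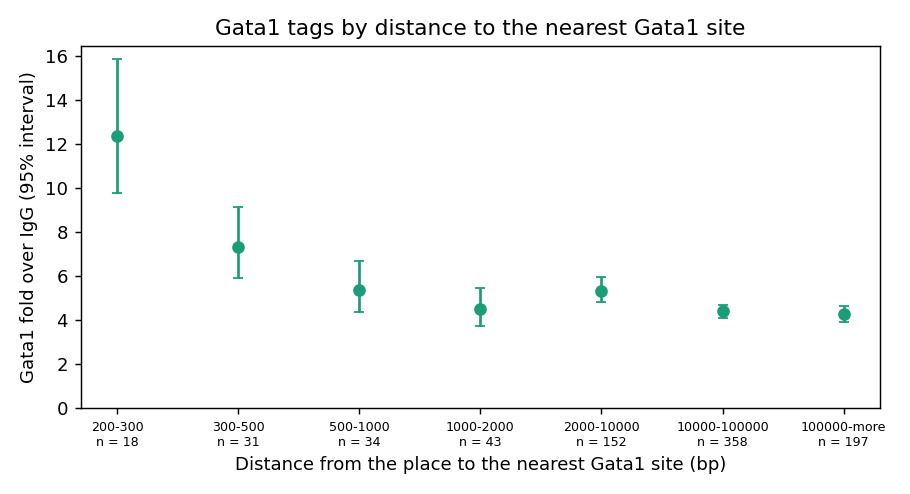
Gata1 fold over IgG, from tags summed over the Ldb1-Tal1 places in each class of distance to the nearest Gata1 site (in bp), with exact 95% intervals and the number of places under each point. The fold is 12.4 in the nearest class, 5.39 between 500 and 1000 bp, 5.35 between 2000 and 10000 bp and 4.27 beyond 100 kb.

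The 83 places with a Gata1 site within 1000 bp lay a median of 430 bp from it (quartiles 312.5 to 662.5 bp). The neighbouring Gata1 site belonged to a place of all 3 antibodies in 50 cases (60.2%), to Gata1 alone in 17, to Tal1 and Gata1 in 11 and to Ldb1 and Gata1 in 5. The neighbour had the higher Gata1 level in 61 of 83 pairs, and the higher Ldb1 level in 46 and the higher Tal1 level in 46. In the other pairs the level of the place without a Gata1 call was at least that of its neighbour. Levels are counted within 250 bp of each midpoint, so in the closer pairs both windows count some of the same tags. Only the neighbour holds a Gata1 call, so the choice of places favours its Gata1 level. Summed over the 83 places, Ldb1 stood at 15.9 times IgG (14.1 to 18.1), Tal1 at 22.7 times (20.1 to 25.7) and Gata1 at 7.95 times (7.02 to 9.03). Gata1 passed the binomial test at 72 (86.7%, 77.5 to 93.2), an interval that holds the 82.3% of all places.

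When these places were turned so that the Gata1 site lay to the right, the tags of all 3 antibodies were drawn out to that side. The side is set by the turning and the calls. A called Gata1 site lies there by choice, and 50 of the 83 neighbouring places were called for all 3 antibodies. From 250 to 1000 bp the Gata1 side held 5.96 times the Gata1 tags of the other side, 9.33 times the Ldb1 tags and 14.2 times the Tal1 tags. IgG had 0.600 RPM per place on the Gata1 side and 0.400 RPM on the other. A place on chromosome 2 from 91748611 to 91748731, whose surroundings alone held 12.9% of the Ldb1 tags within 1500 bp of the 83 places, was left out of this profile after it had been seen. Strand order of the 3 antibodies was weaker in this group than at the 750 places. Of the Gata1 tags, 53.1% (51.0 to 55.1) lay on the side of their strand, against 59.7% for Ldb1 and 58.2% for Tal1. The IgG share was 59.4% (53.3 to 65.2), against 57.5% at the 750 places. Tags of a neighbouring site fall on 1 side of the midpoint with both strands. The part of such tags in these shares was not tested.

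Along the chromosomes the Ldb1-Tal1 places were spread widely. Their share of all places was lowest on chromosome 19, with 26 of 402 places (6.47%, 4.27 to 9.33), and highest on chromosome 5, with 72 of 656 (8.69 to 13.6), and these intervals overlap. A place of all 3 antibodies lay within 20 kb of 242 of the 833 (29.1%, 26.0 to 32.3). The same share was 35.9% (33.9 to 37.9) for the places of all 3 themselves, 19.3% (17.3 to 21.4) for those of Ldb1 alone and 31.3% (29.0 to 33.6) for those of Tal1 alone. Another Ldb1-Tal1 place lay within 20 kb of 111 (13.3%, 11.1 to 15.8), against 292 of the 2249 places of all 3 (11.6 to 14.4%), 11.9% (10.3 to 13.5) of the places of Tal1 alone and 7.33% (6.06 to 8.77) of those of Ldb1 alone. The interval of the Ldb1-Tal1 places overlapped those of all 3 and of Tal1 alone.

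Single places show the range. They are given by their position on the mouse assembly mm8, and their genes were not determined because a gene annotation of that assembly was not used here. Among places with no Gata1 site within 1000 bp, the best mean rank of Ldb1 and Tal1 fell to chromosome 9 from 3002331 to 3002511, which also had the highest Gata1 and the highest IgG level of the 750. It carried 28.4 Ldb1, 25.5 Tal1, 15.7 Gata1 and 4.03 IgG RPM. These levels rested on few positions: 36 distinct of 181 Ldb1 tags, 22 of 147 Tal1 tags, 18 of 124 Gata1 tags and 9 of 30 IgG tags. Its folds over IgG were 7.05 (4.77 to 10.7) for Ldb1 and 3.90 (2.60 to 6.03) for Gata1.

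The next in rank had Gata1 tags well under those of Ldb1 and Tal1. Chromosome 9 from 57567871 to 57567951 had 19.3 Ldb1, 29.6 Tal1, 4.70 Gata1 and 1.08 IgG RPM, with a Gata1 site 1355 bp away. Chromosome 7 from 126882731 to 126882791 had 19.9, 22.2, 5.33 and 1.21 RPM in the same order, and its nearest Gata1 site was 38230 bp away. Its Gata1 fold over IgG was 4.41 (2.12 to 10.3), against 16.5 (8.41 to 36.9) for Ldb1. The Gata1 folds of both (4.37, from 37 Gata1 and 8 IgG tags, for the place on chromosome 9) were near the 4.55 of all 750 places.

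Chromosome 15 from 78399031 to 78399111 had 13.3 Ldb1, 27.4 Tal1, 7.24 Gata1 and 1.34 IgG RPM, and 48 of its 57 Gata1 tags were distinct. Its nearest Gata1 site was 158545 bp away. The 48 distinct tags come from a wider window than the caller's minimum of 11, so these counts cannot be compared directly. Chromosome 7 from 103734871 to 103734931 had 12.6, 16.6, 2.79 and 1.21 RPM, with a Gata1 fold of 2.31 (1.02 to 5.70). Chromosome 8 from 122804171 to 122804271 had 12.2, 17.2, 4.70 and 0.403 RPM, and its Gata1 fold of 11.7 rests on 3 IgG tags (3.69 to 59.1). Chromosome 18 from 85832191 to 85832331 had the second highest Gata1 level of the 750, 8.26 RPM, above its Ldb1 (6.44) and Tal1 (4.33) levels. There 25 of 65 Gata1 tags were distinct, and IgG had 1.61 RPM.

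At other places with a high sum of Ldb1 and Tal1 RPM the Gata1 library did not exceed IgG. Chromosome 8 from 125551491 to 125551551 had 7.85 Ldb1 and 5.37 Tal1 RPM but 3 Gata1 tags against 4 of IgG, a Gata1 fold of 0.709 (0.104 to 4.19). A Gata1 site lay 1080 bp away. Chromosome 5 from 36406151 to 36406291 had 9.11 Ldb1 and 4.16 Tal1 RPM, and chromosome 18 from 61233971 to 61234071 had 8.64 and 8.84 RPM. Each had 5 Gata1 and 5 IgG tags, a fold of 0.945 (0.217 to 4.10). All 3 intervals include a fold of 1 and end just under the 4.55 of all 750 places. These places were picked for their low ratio.

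The ratio of Tal1 to Ldb1 RPM varied over a wide range. The antibodies differ, so this ratio orders the places and does not give the amounts of the proteins. Over the 833 places the median log2 ratio of Tal1 to Ldb1 RPM was 0.21 (quartiles -0.22 to 0.71), against 0.32 at the places of all 3. Tal1 RPM exceeded Ldb1 RPM at 459 of the 750 places without a near Gata1 site (61.2%) and at 71 of the 83 with one (85.5%, 76.1 to 92.3). In the latter the counts can include tags of the neighbouring site. Among the 209 places with a summed level of at least 12.3 RPM, the highest ratios belonged to a pair of places. Chromosome 11 from 113467431 to 113467551 had 20.3 Tal1, 3.61 Ldb1 and 1.52 Gata1 RPM and no IgG tag, so that set against 3 IgG tags Tal1 was at least 50.3-fold higher. Chromosome 10 from 127497091 to 127497171 had 23.1 Tal1 against 4.24 Ldb1 RPM.

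The lowest ratio was on chromosome 8 from 87590191 to 87590391, with 21.7 Ldb1 and 4.33 Tal1 RPM. Chromosome 11 from 90491991 to 90492091 came next, with 83 Ldb1 tags and 19 Tal1 tags (3.29 RPM). The place on chromosome 8 had 7 Gata1 tags and 1 IgG tag, a fold of 6.61 with an interval of 0.850 to 298, and a place of all 3 antibodies lay 1510 bp away. Its Ldb1 site had 58 tags by the caller and its Tal1 site 13. The Ldb1-Tal1 places thus include some with a strong site of 1 protein and a site of the other at or under the median of its list, which was 13 tags for Tal1.

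The strongest places with a Gata1 site within 1000 bp were close to it. Chromosome 10 from 43297831 to 43297891, 255 bp from a Gata1 site, had 26.4 Ldb1, 45.9 Tal1, 7.87 Gata1 and 0.134 IgG RPM. Its own sites held only 12 Ldb1 and 10 Tal1 tags by the caller, and a place of all 3 antibodies lay 245 bp away. Chromosome 8 from 108710511 to 108710631 had 30.5, 33.5, 15.7 and 1.34 RPM at 265 bp, and it too had a place of all 3, 270 bp away. Chromosome 16 from 8528111 to 8528171 had 25.9, 34.7, 10.8 and 0.269 RPM at 225 bp. Its sites were strong in the caller's count, with 68 Ldb1 and 78 Tal1 tags, and the nearest place of all 3 was 8875 bp away.

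At each limit, 1 place on either side is given as a description. The place nearest to the 200 bp limit, on chromosome 2 from 152480691 to 152480751, had its nearest site centre 210 bp from a Gata1 centre and carried 17.9 Ldb1, 21.7 Tal1 and 8.51 Gata1 RPM. The place of all 3 antibodies nearest to the limit, on chromosome 7 from 63835091 to 63835511, had this distance at 200 bp and carried 10.8, 12.3 and 6.10 RPM. Just inside the 1000 bp limit, chromosome 5 from 123354011 to 123354051 had 4.40, 3.99 and 2.67 RPM at 1000 bp. Just outside it, chromosome 14 from 33490771 to 33490871 had 4.71, 3.64 and 2.03 RPM at 1025 bp.

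IgG itself was high at few places. After the place at the start of chromosome 9, the highest IgG levels were 3.63 RPM on chromosome 17 from 13345351 to 13345611 and 2.15 RPM on chromosome 19 from 53379071 to 53379191. Ldb1 stood there at 3.03 times (1.92 to 4.91) and 2.85 times (1.55 to 5.46) IgG, and Gata1 at 1.43 times (0.861 to 2.42) and 1.48 times (0.758 to 2.96). More than 5 IgG tags were found at 112 of the 833 places.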

How the data were processed

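The deposited libraries are lists of aligned tags. The genome build is mm8 (submitters' processing notes), and the aligner is not given in the sources used here. The deposited score column of the tag lists was not used. Per the file headers, the authors called the sites of each antibody with SISSRs 1.4 (p 0.001, e-value 10, at least 2 directional tags per side), taking IgG as background and 1 tag per genomic position; the minimum per site was 9 (Ldb1), 8 (Tal1) and 11 tags (Gata1). The deposited site lists give a tag count, a fold over background and a p-value; only the tag count was used here.

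Duplicate tags were kept in counts (72.0%, 63.2%, 89.0% and 77.3% of Ldb1, Tal1, Gata1 and IgG tags were distinct), with 1 tag per position as an alternative. Folds over IgG are ratios of summed tags, scaled to library size, with exact conditional intervals, and shares carry exact Clopper-Pearson intervals. The chaining and the binomial test were tested on simulated data. Python 3.11.15, numpy 2.4.6, pandas 2.3.3, scipy 1.17.1 and matplotlib 3.10.9 were used.

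The places and comparisons were chosen with earlier results of these data known. Named places are the 6 and 3 with the best mean rank of Ldb1 and Tal1 RPM without and with a Gata1 site within 1000 bp, the 3 with the highest Gata1 RPM, the 3 with the lowest Gata1 to IgG ratio and the 2 at each end of the Tal1 to Ldb1 ratio in the upper 25% by summed level, the 3 with the highest IgG RPM, and those at the limits. Motifs, sequences and nearest genes were planned for an mm8 genome and were not analysed here.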

Additional observations from a re-analysis of the deposited data

How the results depend on the processing

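Of 34 alternative values, 13 stayed within the main interval and 21 moved. For a count the range was within 1.5 times, and for a median it was the quartiles over places, which are wide. Every fold stayed above 1 and the strand share above 50%. The Gata1 fold over IgG at places with no Gata1 site within 1000 bp (4.55) was 6.29 in a 100 bp window, 3.45 in a 500 bp window, 4.32 with tags moved by 50% of the fragment length, 4.92 against own flanks and 5.55 with at most 5 IgG tags. It was 4.62 at the 691 places with no other place of any kind within 1000 bp, an alternative added after seeing the data. With a Gata1 site within 1000 bp (7.95) it was 10.1 in the 100 bp window and 6.61 against own flanks. For Ldb1 (12.3 over all 833 places) it was 10.9 with 1 tag per position, 18.7 at 100 bp and 8.77 at 500 bp, and for Tal1 (14.9) 13.6, 23.8 and 10.7. The number of places (833) was 391 with only sites at or above the median tag number of each list, and 236 when this held for Ldb1 and Tal1 alone. The share with a Gata1 site within the limit (9.96%) was 5.88% at 500 bp, 15.1% at 2000 bp and 3.46% with chaining at 500 bp. The strand share of Gata1 (66.7%) was 63.7% at 500 bp, and the share with a place of all 3 within 20 kb (29.1%) was 13.9% at 5 kb and 57.3% at 100 kb. By 1 tag per position Gata1 passed the binomial test at 447 places (59.6%, against 78.2% of all places). No paired analysis was possible because there is a single library per antibody, which also leaves no replicate to drop. Depth limits single places: with 3 to 5 Gata1 tags an interval of the fold ran from 0.104 to 4.19.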

Other observations

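Beside 1 Ldb1-Tal1 place stood an outlying pile of Ldb1 tags. The place on chromosome 2 from 91748611 to 91748731 had 2.67 Ldb1, 3.64 Tal1, 2.67 Gata1 and 0.538 IgG RPM. At 445 bp lay a place of all 3 antibodies, from 91749051 to 91749191, with 278.5 Ldb1 RPM, the highest Ldb1 level of the 2249 such places, against 3.47 Tal1, 4.32 Gata1 and 0.134 IgG RPM. Its 1774 Ldb1 tags fell on 14 distinct positions and strands, whereas 13 of 20 Tal1 tags and 29 of 34 Gata1 tags were distinct. The median place of all 3 had 33 distinct Ldb1 tags. It was singled out after its values were seen.

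Outside chromosomes 1 to 19, 11 further places with Ldb1 and Tal1 sites and no Gata1 site lay among the 135 places of chromosome X, beside 31 places of all 3. The 16 places on chromosome M included none.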
